A study of Arabidopsis thaliana with 4 samples.

Results

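The loci described here are 53 Arabidopsis loci that gained small RNA reads in plants mutant for 2 RNA decay factors, lost most of that gain when RDR6 was also mutant, and were not on a list of 24 loci set aside by name. They were chosen from 33602 loci by 3 conditions on the read counts. A locus had to hold at least 50 reads in the ein5-1 ski2-3 library, at least 4 times its share of reads in Col-0, and at most 0.25 of that level in the rdr6-11 ein5-1 ski2-3 library. Each ratio had 1 read added to both counts. These conditions were met by 77 loci, 18.6% of the 413 loci with at least 50 reads in ein5-1 ski2-3. From them 24 loci were left out by name, among them TAS4, ARF6, the auxin receptor AFB2, AGO1, GRF5, HD-ZIP III genes and nitrate reductase genes, and are called named families here. The list does not cover whole families, since ARF10 and MIR156f, for example, stayed in. Of the 53 loci, 47 are protein-coding, 3 are transcribed pseudogenes, 1 is a microRNA gene, 1 is another non-coding RNA gene, and 1 was not matched to the TAIR10.1 annotation. They lie on all 5 nuclear chromosomes, with 12, 8, 12, 6 and 14 matched loci on chromosomes 1 to 5.

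RNA below 200 nt was sequenced from aerial tissue of 18-day-old plants of 4 genotypes, with 1 library each. Col-0 served as wild type. The ein5-1 ski2-3 line (the decay mutant) carries a mutant allele of EIN5, a cytoplasmic exonuclease that degrades decapped mRNA from its 5′ end, and one of SKI2, a helicase that feeds mRNA into the exosome from the opposite end. In rdr6-11 plants the mutant gene is RDR6. The rdr6-11 ein5-1 ski2-3 plants (triple mutant below) have all 3 mutant alleles.

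RDR6 is an RNA-dependent RNA polymerase that copies single-stranded transcripts into double-stranded RNA, which DICER-LIKE enzymes cut into siRNAs. It is best known for making trans-acting siRNAs from TAS transcripts after a microRNA has cut them, and for silencing transgenes. Aberrant or cleaved mRNA that is not removed by decay can become a substrate of the same pathway, so that siRNAs arise from ordinary protein-coding genes. The table analysed here gives neither read length nor strand, so siRNAs, microRNAs and mRNA fragments were counted together at each locus.

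The libraries held 621515 to 878632 reads, at which 1 read was worth 1.14 to 1.61 RPM, the reads scaled to a common library size. Each genotype had a single library, so differences have no replicate check and no test was made. Intervals are exact 95% binomial intervals that cover counting error only. Folds of single loci and of summed reads are ratios of RPM, and log2 folds have 1 read added to each count. Where a library had 0 reads, the upper limit of 3 reads was put in its place, which makes the fold a lower bound. The 8 TAS loci, which need RDR6, summed to 57730 reads in Col-0, 15530 in the decay mutant, 111 in rdr6-11 and 455 with all 3 alleles. All 6 leaf markers were measured, with summed reads of 269 to 1038 per library, while the 4 root markers together held 0 to 2 reads and the 5 flower markers 1 to 11. These are bulk samples, so fewer cells of a type and less RNA per cell cannot be told apart.

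The 53 loci together held 627 reads in Col-0, 13202 in the decay mutant, 691 in rdr6-11 and 2025 in triple mutants. As a share of each library that was 0.0776% (0.0716 to 0.0839), 2.12% (2.09 to 2.16), 0.0786% (0.0729 to 0.0847) and 0.231% (0.221 to 0.241). The median locus held 4 reads in Col-0, 96 in the decay mutant, 4 in rdr6-11 and 15 in triple mutants. The decay mutant stood far above the other libraries, rdr6-11 was level with Col-0 in the sum, and the triple mutant lay between. The values in Col-0, the decay mutant and the triple mutant chose the loci, so the rise of 27.4-fold (25.3 to 29.7) in the summed share and the 9.21-fold lower share in the triple mutant (8.78 to 9.65) are given as a description. The background for these calls was high. Of all loci where the higher of the libraries compared held 50 reads or more, 26.8% were higher by 4-fold in the decay mutant than in Col-0 and 9.04% lower. Between the triple and the decay mutant 13.3% were higher, and 14.3% were lower, in the triple mutant.

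**Figure D1:**
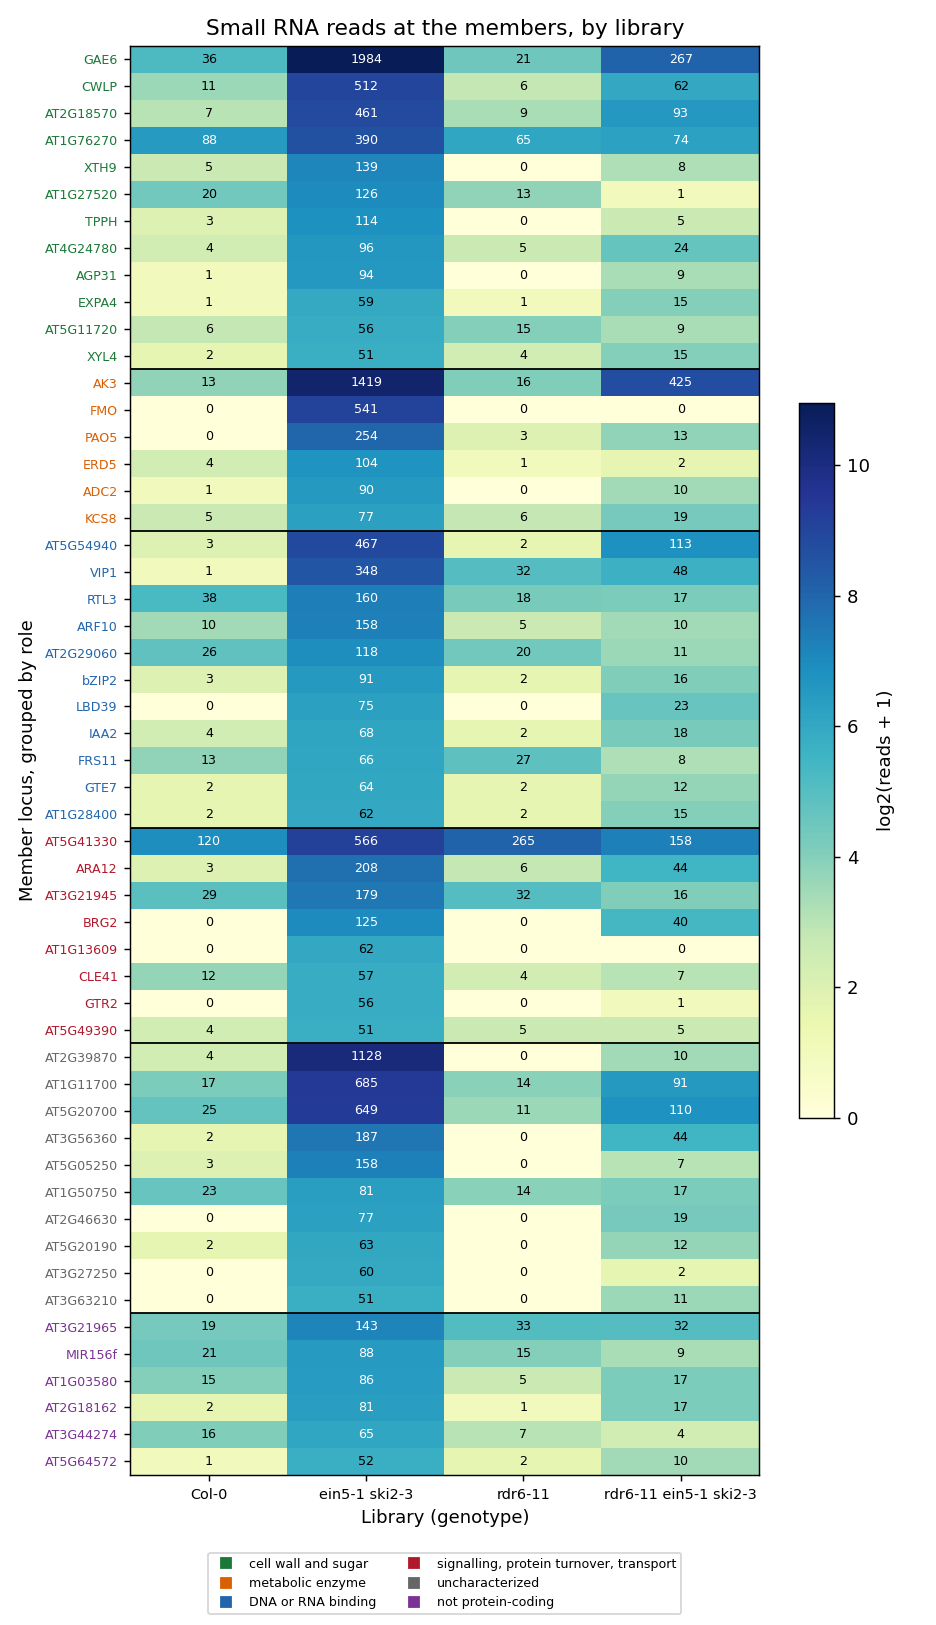
Reads at each of the 53 loci (vertical axis, grouped by role) in the 4 libraries (horizontal axis), with the count printed and coloured as log2 of reads plus 1. The decay mutant column is the darkest at every locus, from 51 to 1984 reads, and the rdr6-11 and Col-0 columns are pale, with 16 and 9 loci at 0 reads.

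The gain was uneven. GAE6 alone held 15.0% of the reads at these loci in the decay mutant, the top 5 loci held 44.4% and the top 12 held 69.3%. At least 100 reads were counted at 26 loci and at least 1000 at 3. Per kilobase of locus, the decay mutant levels ran from 24.9 RPKM at XYL4 to 1553 RPKM at the short microRNA gene MIR156f, with a median of 103 RPKM. GAE6 (1544 RPKM) and AT1G11700 (1228 RPKM) were next in that order.

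The largest group by reads were 12 loci for cell wall proteins and for enzymes that act on sugars, glycosyltransferases and glycosyl hydrolases included. They held 184, 4082, 139 and 582 reads in Col-0, the decay mutant, rdr6-11 and the triple mutant. In this order, used throughout, GAE6 held 36, 1984, 21 and 267 reads. Without GAE6 the group would not be the largest. GAE6 is a UDP-glucuronate epimerase that makes the sugar donor for pectin. Its share was 71.7-fold higher in the decay mutant than in Col-0 (51.6 to 103) and 10.5-fold lower in the triple than in the decay mutant (9.23 to 12.0). CWLP, annotated as a linker between cell wall and plasma membrane, held 11, 512, 6 and 62 reads. AT2G18570, a UDP-glycosyltransferase, held 7, 461, 9 and 93. In all 3 the triple mutant kept more reads than Col-0 or rdr6-11 had. The O-fucosyltransferase gene AT1G76270 started from a higher level, with 88, 390, 65 and 74 reads, and its ratio of the triple mutant to Col-0 was 0.775 (0.561 to 1.07).

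The other 8 loci of this group held 51 to 139 reads in the decay mutant. XTH9, a xyloglucan-modifying enzyme, held 5, 139, 0 and 8 reads. EXPA4, an expansin that loosens walls, held 1, 59, 1 and 15, and the arabinogalactan protein gene AGP31 held 1, 94, 0 and 9. AT1G27520, a glycosyl hydrolase of family 47, differed from these in having 20 reads in Col-0, 126 in the decay mutant and 13 in rdr6-11, but only 1 in the triple mutant. Its Col-0 share was 21.7-fold that of the triple mutant (3.47 to 900). The remaining loci were the pectin lyase-like AT4G24780 with 4, 96, 5 and 24 reads, the trehalose-6-phosphate phosphatase TPPH with 3, 114, 0 and 5, the glycosyl hydrolase AT5G11720 with 6, 56, 15 and 9, and the beta-xylosidase XYL4 with 2, 51, 4 and 15.

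Loci for 6 enzymes of amino acid, polyamine and lipid metabolism and of oxidation summed to 23, 2485, 26 and 469 reads. AK3, an aspartate kinase at the entry to lysine, threonine and methionine synthesis, held 13, 1419, 16 and 425 reads. It accounted for 425 of the group's 469 reads in the triple mutant and held more reads there than any other of the 53 loci. FMO, a flavin-containing monooxygenase gene (AT1G12200), had 0 reads in Col-0, 541 in the decay mutant, 0 in rdr6-11 and again 0 in the triple mutant. Its gain was at least 234.5-fold, and its loss in the triple mutant was at least 255-fold. AK3 and FMO thus stand at opposite ends of the group: both were near or at 0 without the decay mutations, and only AK3 kept a large count without RDR6. PAO5, which oxidises polyamines, held 0, 254, 3 and 13 reads, and ADC2, which makes the polyamine precursor agmatine, held 1, 90, 0 and 10. The proline dehydrogenase gene ERD5 held 4, 104, 1 and 2, and KCS8, an enzyme of fatty acid elongation, held 5, 77, 6 and 19.

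Loci for 11 proteins that bind DNA or RNA summed to 102, 1677, 112 and 291 reads. AT5G54940, which encodes a translation initiation factor of the SUI1 type, held 3, 467, 2 and 113 reads. VIP1, a bZIP transcription factor, held 1 read in Col-0, 348 in the decay mutant, 32 in rdr6-11 and 48 in triple mutants. VIP1 was the only locus of this group with more than 30 reads in rdr6-11. RTL3, an RNase III-like gene, held 38, 160, 18 and 17 reads, so that both libraries with rdr6-11 lay under Col-0. The others in the group were bZIP2 with 3, 91, 2 and 16, AT2G29060 (a GRAS family protein) with 26, 118, 20 and 11, LBD39 with 0, 75, 0 and 23, and the auxin response repressor IAA2 with 4, 68, 2 and 18. FRS11 held 13, 66, 27 and 8, the bromodomain gene GTE7 held 2, 64, 2 and 12, and the zinc finger gene AT1G28400 held 2, 62, 2 and 15.

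The remaining member of that group, ARF10, is an auxin response factor and a textbook target of the microRNA miR160. It held 10, 158, 5 and 10 reads, 20.5-fold higher in the decay mutant than in Col-0 (10.9 to 43.7) and 22.3-fold lower in the triple than in the decay mutant (11.8 to 47.4). Of a list of 46 known microRNA and tasiRNA targets 9 met the conditions on the counts, and 8 of them were left out by name, so that ARF10 is the 1 that remains. The related genes ARF16 and ARF17 carry the same kind of site, and the sequences are shown to set the sites beside the reads. The sites were read from the TAIR10.1 transcripts, and the microRNA from the same RefSeq annotation, in DNA letters and from 5′ to 3′. Capitals mark the microRNA's bases 2 to 8 (its seed) and the site bases opposite them.
miR160: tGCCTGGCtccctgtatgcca
ARF10 site: aggaatacagggaGCCAGGCa
ARF16 site: gggtttacagggaGCCAGGCa
ARF17 site: tggcatgcagggaGCCAGGCa
All 3 sites lie in the coding part and pair fully with the seed. The positions without a Watson-Crick pair number 2 in ARF10, 3 in ARF16 and 1 in ARF17. ARF16 held 1, 6, 2 and 9 reads and ARF17 held 3, 8, 1 and 4, so that ARF10 alone of the 3 rose above 10 reads in any library. The miR160 genes themselves summed to 790, 384, 811 and 259 reads.

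Sites for other microRNAs were rare. With a complementarity score of at most 3 (mismatch 1, G:U pair 0.5, both doubled at microRNA bases 2 to 13) and 350 distinct mature microRNAs, 3 of the 47 protein-coding loci had a site, or 6.38%, against 5.44% of all 26712 protein-coding genes. Besides ARF10 these were ADC2 and ARA12, each with a site of score 3 for miR5021 in the 5′ UTR. The miR5021 gene held 0 reads in all 4 libraries. A score of at most 2 left 1 locus (2.13%, against 1.87%), and a score of at most 4 gave 6 (12.8%, against 11.9%). The leave-out list lowered these shares, since 6 of its 23 protein-coding genes had a site at a score of at most 3 and 11 at a score of at most 4, so nothing is read from their nearness to those of all genes. A match is a description of sequence, not evidence of cleavage.

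Loci for 8 proteins of signalling, protein turnover and transport summed to 168, 1304, 312 and 271 reads. AT5G41330, a BTB/POZ and WD40 repeat protein, held 120, 566, 265 and 158 reads. It had the highest count of the 53 loci in Col-0 and in rdr6-11, and carried 38.4% of their reads in rdr6-11. ARA12, a subtilisin-like protease, held 3, 208, 6 and 44 reads, and AT3G21945, a cysteine-rich repeat secretory protein, held 29, 179, 32 and 16. The RING finger gene BRG2 held 0, 125, 0 and 40. The defensin-like gene AT1G13609, with 0, 62, 0 and 0 reads, shared with FMO the pattern of reads in the decay mutant only. The glucosinolate transporter gene GTR2 came close to it with 0, 56, 0 and 1. CLE41, which encodes a peptide ligand of the vascular cambium, held 12, 57, 4 and 7 reads, and AT5G49390 held 4, 51, 5 and 5.

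The 10 loci of uncharacterized proteins summed to 76, 3139, 39 and 323 reads. AT2G39870 held 4 reads in Col-0, 1128 in the decay mutant, 0 in rdr6-11 and 10 in triple mutants. Its fall in the triple mutant, 159-fold (86.3 to 333), was the largest among the 5 loci with most reads in the decay mutant. AT1G11700, annotated as a senescence regulator, held 17, 685, 14 and 91 reads. AT5G20700, of the DUF581 family, held 25, 649, 11 and 110, and AT3G63210, of the same family, held 0, 51, 0 and 11. AT3G56360 held 2, 187, 0 and 44, and its relative AT5G05250 held 3, 158, 0 and 7. The other 4 loci, AT1G50750, AT2G46630, AT5G20190 and AT3G27250, held 60 to 81 reads in the decay mutant and 2 to 19 in the triple mutant. Of this group 7 had 0 reads in rdr6-11, while 3 had 0 in Col-0.

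The 6 loci not annotated as protein-coding, 1 of them unmatched and so of unknown type, summed to 74, 515, 63 and 89 reads. The pseudogenes were AT3G21965 with 19, 143, 33 and 32 reads, AT1G03580 with 15, 86, 5 and 17, and AT3G44274 with 16, 65, 7 and 4. AT5G64572, a non-coding RNA gene, held 1, 52, 2 and 10, and the unmatched AT2G18162 held 2, 81, 1 and 17. The table gives AT2G18162 the same length as bZIP2, and their counts are alike (81 and 91 reads in the decay mutant), so both may count the same reads.

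MIR156f, one of the genes for miR156, a microRNA that keeps plants in the juvenile phase, held 21, 88, 15 and 9 reads. Its mature sequences, from the TAIR10.1 annotation in DNA letters, are shown because the first is shared by several genes. Capitals mark bases 2 to 8.
miR156f-5p: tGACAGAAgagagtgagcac
miR156f-3p: gCTCACTCtctatccgtcacc
The 5p sequence is the same in MIR156a to MIR156f, while the 3p sequence is that of MIR156f alone among the annotated miR156 and miR157 genes. MIR156a held 57, 59, 72 and 45 reads, MIR156b 75, 61, 58 and 43, MIR156c 1019, 442, 690 and 338, and MIR156d 62, 42, 30 and 22. MIR156e held 19, 25, 20 and 12. Of these 5 genes MIR156a and MIR156e had more raw reads in the decay mutant than in Col-0, and the others had fewer. MIR156f had 88 against 21. The decay mutant library was the smaller, with 621515 reads against 808276, so a lower raw count is not always a lower share. At MIR156b the share was not lower in the decay mutant. How the authors assigned reads that match several places is not given in the sources used here, so the reads of one copy cannot be separated from those of another.

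The rdr6-11 library was not used to choose the loci, but Col-0 was, since a low Col-0 count favoured selection. The summed share in rdr6-11 was 1.01-fold that in Col-0 (0.909 to 1.13). This near equality rested on 1 locus: without AT5G41330 the ratio was 0.773 (0.678 to 0.881). Without the 11 loci that overlap another annotated gene, AT5G41330 and VIP1 among them, it was 0.710 (0.606 to 0.831). The median log2 fold was -0.38, with 15 loci above 0 and 38 below, against a median of 0.02 over all loci measured. The 38 include 8 loci with 0 reads in both libraries, which fall slightly below 0 because the rdr6-11 library is larger. Only AT5G41330 and AT1G76270 reached 50 reads in one of these libraries, and neither passed 4-fold. Of all loci with that many reads 1.95% were higher and 3.9% lower in rdr6-11.

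Single loci differed beyond counting error in both directions. The interval of the ratio of rdr6-11 to Col-0 lay above 1 at VIP1 (1 and 32 reads, 29.4-fold, 4.92 to 1199) and at AT5G41330 (120 and 265 reads, 2.03-fold, 1.63 to 2.54). It lay below 1 at GAE6, AT1G76270, AT5G20700, RTL3 and AT1G03580. The share of all loci with an interval above or below 1 was not computed, so these counts are not read as particular to the loci described. At GAE6 the ratio was 0.537 (0.298 to 0.944), and at RTL3 it was 0.436 (0.234 to 0.782). By role, the summed ratio was 0.695 (0.553 to 0.871) for the cell wall and sugar loci, 0.472 (0.312 to 0.703) for the uncharacterized loci and 1.71 (1.41 to 2.07) for signalling, protein turnover and transport. The last of these is set by AT5G41330, which gave 265 of 312 reads. With counts this low in both libraries, a dependence on RDR6 in plants with intact decay was not detectable at most of the loci.

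**Figure D2:**
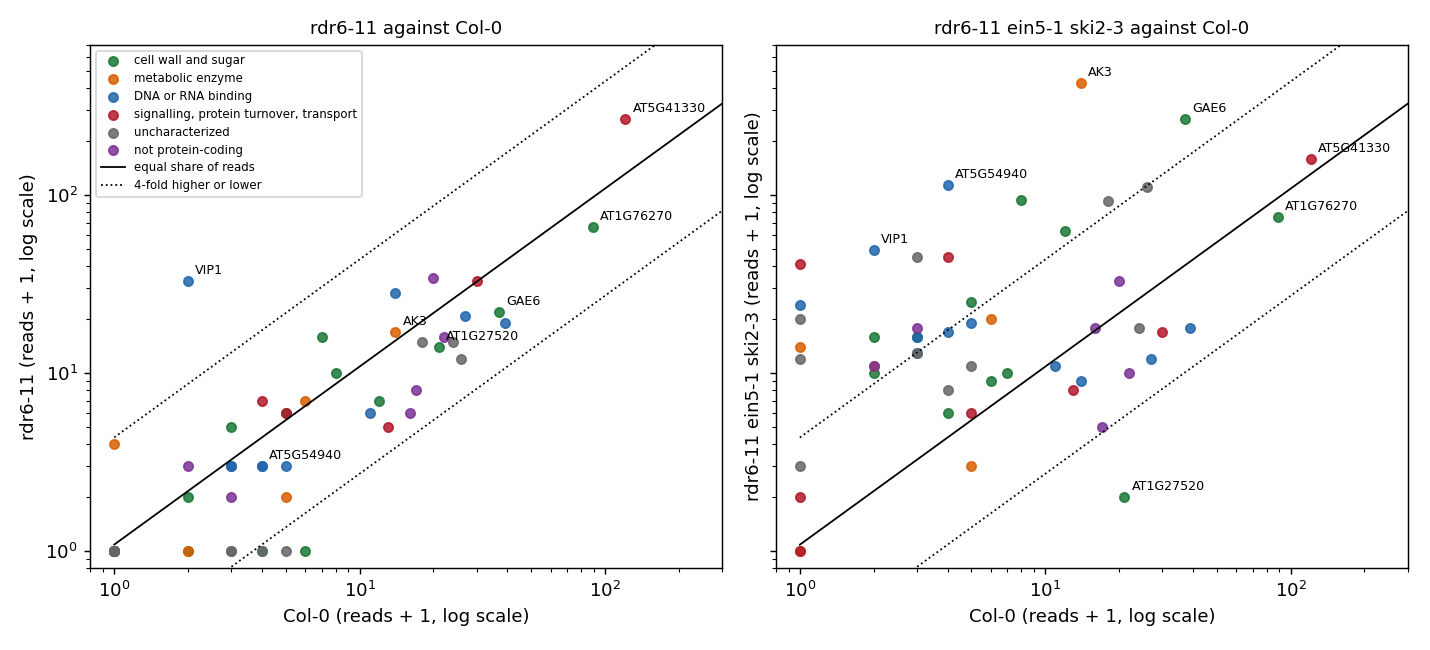
Reads plus 1 at each of the 53 loci in rdr6-11 (left panel) and in the triple mutant (right panel) against Col-0, on log axes, with a solid line at equal shares of the library and dotted lines at 4-fold. In the left panel 38 loci lie below the line and VIP1 stands far above it. In the right panel 39 loci lie above the line.

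The triple mutant did not return to the Col-0 level at many of the loci. Its summed share was 2.97-fold that of Col-0 (2.72 to 3.26) and 2.93-fold that of rdr6-11 (2.69 to 3.20). The counts of Col-0 and the triple mutant both entered the choice of the loci, so the ratios given here are a description. Without AT5G41330 these ratios were 3.39 and 4.39. The median log2 fold of the triple mutant over Col-0 was 1.81, with 39 loci above 0 and 14 below, of which FMO and AT1G13609 had 0 reads in both. Over all loci measured (at least 10 reads in any library) that median was 0.47, and over the protein-coding ones 1.62. The summed ratio of those protein-coding loci was 1.69-fold. A locus can be measured through its reads in the triple mutant alone, so these medians partly reflect that filter. How much of the median of 1.81 was shared with other loci was not tested. Against rdr6-11 the median was 2.06, with 43 loci above 0 and 10 below. Over all loci measured it was 0.42 and over protein-coding ones 1.42. The 43 include FMO and AT1G13609 with 0 reads in both libraries and AT5G49390 with 5 in each. These fall slightly above 0 because the rdr6-11 library is the larger.

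Of the 9 loci with at least 50 reads in Col-0 or the triple mutant, 6 were at least 4-fold higher in the triple mutant: AK3, AT5G54940, AT2G18570, GAE6, CWLP and AT1G11700. Of all loci with that many reads, 25.0% were higher by this rule and 5.02% lower. Apart from AT5G41330 and AT1G76270, the 9 loci reached 50 reads only in the triple mutant. Both libraries also entered the choice of the loci, so 6 of 9 is a description and not an excess over 25.0%. AK3 was 30.1-fold higher than in Col-0 (17.4 to 57.0) and AT5G54940 34.7-fold (11.6 to 171), the latter from 3 reads in Col-0. AT2G18570 followed at 12.2-fold (5.71 to 31.3), GAE6 at 6.83-fold (4.81 to 9.96), CWLP at 5.19-fold (2.71 to 10.9) and AT1G11700 at 4.93-fold (2.92 to 8.83). Among these 6, AK3 and AT5G54940 also kept the most of their decay mutant level, being 4.71-fold and 5.84-fold lower in the triple than in the decay mutant. Against rdr6-11 the same 6 loci and AT5G20700 were higher by 4-fold, beside 16.4% of all loci with that many reads. None was lower, beside 0.418%. These loci too reached 50 reads only in the triple mutant, so this is likewise a description.

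The loci that already had reads in Col-0 differed from the rest in both ratios, though both sides of this comparison share the Col-0 count. The 19 loci with at least 10 reads in Col-0 had a median rise of 7.07-fold in the decay mutant and a median log2 fold of -0.37 in the triple mutant over Col-0. The 34 loci with fewer had medians of 55.4-fold and 2.20. The interval of the triple mutant over Col-0 lay below 1 at 6 loci: AT1G27520, AT2G29060, AT3G21945, AT3G44274, MIR156f and RTL3. All 6 held 16 to 38 reads in Col-0. It lay above 1 at 28 loci. The share of all loci with such an interval was not computed, so these counts are not read as particular to the loci described.

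By role, the excess of the triple mutant over Col-0 was 18.8-fold (12.4 to 29.9) for the metabolic enzymes, nearly all of it AK3, and 3.91-fold for the uncharacterized loci. It was 2.91-fold for the cell wall and sugar loci and 1.11-fold (0.805 to 1.53) for the loci not annotated as protein-coding. For comparison, the 98 loci that gained reads in the decay mutant and were not lower by 4-fold in the triple mutant were 10.07-fold above Col-0 there (9.45 to 10.7). The 24 loci of named families were 1.43-fold above Col-0. These sets were defined by the same libraries, so the order between them is partly fixed by the rule.

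Close relatives of these genes mostly held few reads. Of the 47 proteins, 30 had a closest relative with at least 50% identity over at least 50% of their length. By the rule of 4-fold and 50 reads the relative gained reads in the decay mutant in 2 cases. The other 28 relatives held at most 33 reads in the decay mutant and at most 17 in Col-0, under the minimum of 50 reads. A gain could thus be called at only 2 relatives and was called at both, beside 26.8% of all loci with that many reads. With so few, nothing is read from this count. GAE6 had 1544 RPKM in the decay mutant, where its relative GAE2, at 68.5% protein identity, had 0, 4, 0 and 0 reads. AK3 and its relative AT5G14060, another aspartate kinase at 83.0% identity, differed in the decay mutant as 677 and 13.7 RPKM. AT5G54940 and its relative AT4G27130, at 73.5% identity, differed as 644 and 2.49 RPKM. FMO had 340 RPKM there and its relative AT1G63340, at 73.8% identity, had 0 reads. The loci were chosen for their reads in the decay mutant and the relatives were not. A lower level at the relatives was therefore largely set by the choice, and these contrasts are a description.

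ADC2 and its relative ADC1 crossed over between libraries. ADC2 held 1, 90, 0 and 10 reads and ADC1, at 81.4% identity and with a stretch of 40 identical bases, held 11, 26, 4 and 92. The count of ADC1 was thus highest in the triple mutant, where that of ADC2 had fallen.

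The relatives that gained reads were AT2G18560, of AT2G18570, and AT5G05250, of AT3G56360. AT2G18560 is a glycosyltransferase gene next to AT2G18570 on the chromosome, at 80.5% identity. AT2G18570 held 7, 461, 9 and 93 reads and AT2G18560 held 4, 121, 0 and 137. Both gained in the decay mutant. In the triple mutant AT2G18570 went from 742 to 106 RPM, and AT2G18560 from 195 to 156 RPM. AT3G56360 and AT5G05250 are both among the 53 loci, at 53.5% identity. The longest stretches of identical bases within each pair, from the TAIR10.1 transcripts, are shown to set their length beside that of an siRNA.
AT2G18570 and AT2G18560: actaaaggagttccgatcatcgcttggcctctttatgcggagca
AT3G56360 and AT5G05250: tgggccggtttgttatct
The first runs over 44 bases, so reads from it cannot be assigned to either gene by sequence alone. The second runs over 18 bases, under the 21 bases of a typical RDR6-dependent siRNA.

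**Figure D3:**
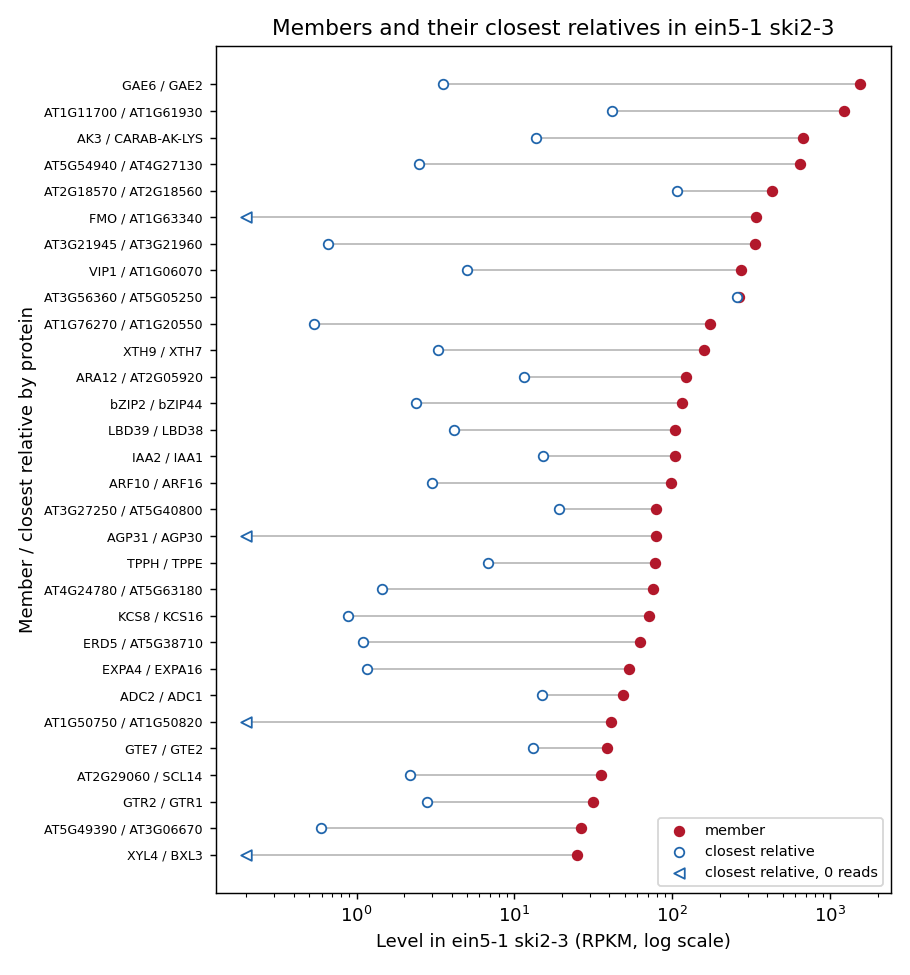
Level in the decay mutant (horizontal axis, RPKM on a log scale) of each locus (filled circles) and of its closest relative by protein (open circles, or triangles at 0 reads) for the 30 pairs (vertical axis, ordered by the level of the locus, labelled member). The relative lies left of the locus in every pair, by the smallest distance for AT3G56360 and AT5G05250, at 264 and 258 RPKM. The loci were chosen for their reads in this library and the relatives were not, which favoured this order.

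Sequence shared with the rest of the genome was small for most of the loci. Over the 52 matched loci a median of 1.08% of the 21-base words of a transcript also occurred elsewhere in the genome, and 47 loci were under 5%. Over 10% were AT3G44274 (22.1%), MIR156f (11.6%), AT1G50750 (11.4%) and KCS8 (10.6%). KCS8 shares a stretch of 130 bases with AT2G15120, which held 6, 5, 4 and 1 reads. AT3G21945 and the pseudogene AT3G21965, both among the 53, share 25 bases.

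A gain at the next gene could rarely be called. Of 102 neighbouring loci only AT2G18560 gained reads by the same rule and none is among the 53. However, only 2 of the neighbours held at least 50 reads in Col-0 or the decay mutant. The 1 gain among these 2 stands beside 26.8% of all loci with that many reads. Another annotated gene overlaps 11 of the loci, mostly on the opposite strand, and counts of such genes cannot be told apart without strand. The overlapping genes held few reads. AK3 (1419 reads in the decay mutant) overlaps AT3G02010 with 1, 1, 0 and 0 reads, and AT5G41330 overlaps AT5G41320 with 1, 1, 1 and 2. VIP1 overlaps EMB1075 with 2, 9, 6 and 9 reads. CWLP overlaps AT3G22121 with 0, 27, 3 and 30, and XYL4 and AT5G64572 overlap each other.

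The protein-coding loci had few exons. Their median was 2, with 31.9% in 1 exon and 55.3% in at most 2, beside a median of 4, 20.6% and 37.6% over all 26712 protein-coding genes. The 73 protein-coding loci that held at least 50 reads in the decay mutant without having gained them had a median of 2 exons, with 32.9% in 1 and 52.1% in at most 2. The low exon number was thus shared with other genes that yield small RNA reads. The 24 loci of named families, of which 23 are protein-coding, had a median of 3 exons, and 3 of the 23 had 1 exon. The 93 protein-coding loci whose gain was kept without RDR6 had a median of 1 exon and 63.4% in 1. Median GC content was 41.6% for the 47 loci, against 41.3% for all protein-coding genes.

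**Figure D4:**
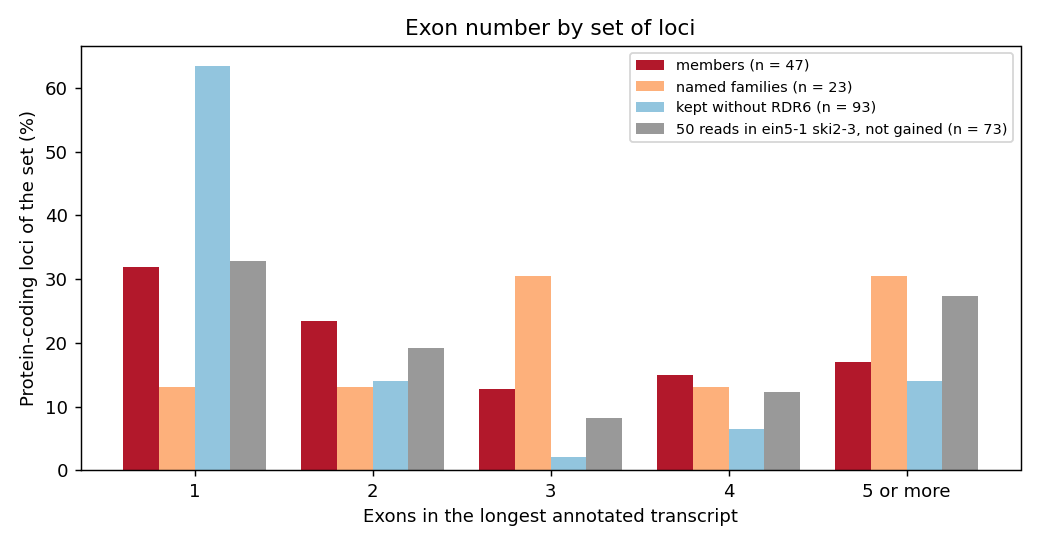
Percent of the protein-coding loci of each set (vertical axis) by number of exons in the longest annotated transcript (horizontal axis), for the 47 loci described (members), the named families, the loci whose gain was kept without RDR6, and loci with at least 50 reads in the decay mutant that had not gained them. The 47 loci have 31.9% in 1 exon, close to the 32.9% of the last set and below the 63.4% of the loci whose gain was kept.

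At the edges of the rule the values ran on without a gap. AT5G49390 and XYL4 entered with 51 reads in the decay mutant, while CYP81H1 with 1, 48, 5 and 7 reads and PP2CA with 2, 47, 1 and 15 stayed out. The lowest rises over Col-0 were 4.44-fold at AT1G50750, with 23, 81, 14 and 17 reads, and 5.05-fold at AT3G44274. XTH24 with 18, 57, 12 and 18 reads (3.97-fold) and AT1G42650 with 53, 147, 31 and 22 (3.56-fold) fell just short. BRG2 and LBD39 kept the largest part of their decay mutant level in the triple mutant, 0.230 and 0.224. CYP710A2 with 1, 55, 1 and 19 reads (0.253) and REV with 0, 140, 4 and 51 (0.261) were just outside.

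Among genes of the pathways themselves few gave enough reads. Of 12 genes of the silencing machinery 3 were measured (at least 10 reads in any library), and the 2 that reached 50 reads in the decay mutant or Col-0 were 1 higher and 1 lower in the decay mutant. AGO1, with 12, 121, 1 and 8 reads, is the higher of these and was left out by name. Of 18 genes of the decay machinery 3 were measured and none reached 50 reads in these libraries. Of the 46 listed microRNA and tasiRNA targets 33 were measured. Their median log2 fold was 2.93 for the decay mutant over Col-0, beside 0.25 over all loci measured and 1.27 over protein-coding ones. For the triple over the decay mutant it was -2.37, beside 0.22 and 0.28. A locus can be measured through its reads in the decay mutant alone, so these medians partly reflect that filter. Of the 18 listed targets that reached 50 reads, 11 were higher and 2 lower in the decay mutant, beside 26.8% and 9.04% of all loci. Likewise 11 of 18 were lower in the triple mutant, beside 14.3% of all loci. ARF10 and the 8 listed targets left out by name are in both counts of 11, because they met the conditions on the counts. These shares are therefore a description and not independent of the rule.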

How the data were processed

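RNA below 200 nt from aerial tissue of 4 Arabidopsis genotypes was sequenced, with 1 library each, grouped by the genotype labels. The deposited table gives the authors' read count per locus and its RPKM, which corrects for length and sequencing depth, as computed by the authors per the file headers. The submitters' processing notes list BWA, CASAVA 1.8.2 and TAIR9 but not what each did. How reads were trimmed, whether strand was used and where reads matching several places were counted is not stated in these sources. RPKM implied 2 sets of locus lengths, 1 for the libraries with RDR6 and 1 for those without, which differed at 2 of 51 of the loci described (XTH9 and ADC2). All folds therefore use counts scaled to table totals, and RPKM only compares levels between genes.

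The members and lists were chosen with earlier results of these data known. A locus was called at 4-fold (1 read added) and 50 reads in the higher library. No test was made, since each genotype has 1 library. PCR copies are not independent molecules, so the exact conditional binomial (Clopper-Pearson) 95% intervals cover counting error only. Named in full were the 20 loci with most reads in the decay mutant and the 5 with most in each library without RDR6. So were those called in rdr6-11 or the triple mutant, and 2 on each side of every threshold. Loci with a microRNA site, a gaining relative or no protein-coding annotation were also named. The other loci are given by counts. Genes were matched by identifier to TAIR10.1, whose coordinates differ from the files' build and are not printed. Relatives come from BLAST+ 2.17.0 on coding sequences translated from TAIR10.1, since no table of RefSeq proteins was at hand. Python 3.11.15, numpy 2.4.6, pandas 2.3.3, scipy 1.17.1 and edgeR 4.0.16 (TMM, with R 4.3.3) were used. The calls were tested on simulated counts that varied by counting error only, so other variation between libraries was not covered. Alternatives changed scaling, fold, minimum, pseudocount, site score and identity.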

Additional observations from a re-analysis of the deposited data

Results flagged for a closer look

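The share of reads was higher in rdr6-11 than in Col-0 with an interval above 1 at 2 of the 53 loci. All 53 were lower in the triple than in the decay mutant by the rule that chose them, so only the rise in rdr6-11 is a value the rule did not fix, although low Col-0 counts favoured selection. VIP1 (AT1G43700) held 1 read in Col-0 and 32 in rdr6-11, a ratio of 29.4 (4.92 to 1199), and 348 in the decay and 48 in the triple mutant. AT5G41330 held 120 and 265 reads, a ratio of 2.03 (1.63 to 2.54), and 566 and 158. With 1 library per genotype the difference between the backgrounds was not tested. How many of all loci have such an interval was not counted.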

How the results depend on the processing

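Under the planned and added alternatives the summed ratios of the triple mutant to Col-0 and to rdr6-11 stayed above 1. The ratio of rdr6-11 to Col-0 fell on either side of 1. Counts of loci have no direction, so only their size is compared. The 53 loci became 33 when scaled to reads at microRNA genes, 105 with a fold of 2, 20 with a fold of 8, 106, 26 and 850 with a minimum of 20, 100 or no reads. Of the 53, 52 were also chosen under median-of-ratios scaling, 52 under TMM, 49 without organelle loci and 51 with a pseudocount of 5. The count of loci lower in rdr6-11 than in Col-0 (0) was 4 with no minimum, and that of loci higher (0) was 1 with a fold of 2, with a minimum of 20 and with none. Loci higher in the triple mutant than in Col-0 (6) were 3 with a fold of 8, and 12, 3 and 22 with a minimum of 20, 100 or none. Those higher than in rdr6-11 (7) were 12, 4 and 27 with these minimums. The summed ratio of rdr6-11 to Col-0 (1.01) was 1.16 by microRNA reads, 1.17 without organelle loci, 0.710 without overlapping loci and 0.773 without AT5G41330, so its side of 1 is not settled. The triple mutant over Col-0 (2.97) was 2.52 by median of ratios, 2.42 by TMM, 4.99 by microRNA reads, 3.73 without organelle loci and 3.39 without AT5G41330. The triple mutant over rdr6-11 (2.93) was 2.56, 2.44 and 4.28 by the first 3 scalings, 2.63 without GAE6, 4.23 without overlapping loci and 4.39 without AT5G41330. The cause of these shifts was not tested beyond the scaling itself, which moved every locus by up to 0.78 (log2, triple over decay mutant, microRNA reads). Loci with a microRNA site (3) were 1 and 6 at scores of at most 2 and 4, and gaining relatives (2) were 1 at 70% identity. The ratios without AT5G41330 and all ratios to rdr6-11 of the triple mutant were chosen after seeing the data. No paired analysis was possible because each genotype has 1 library. Counts under about 10 reads limit most single loci in Col-0 and rdr6-11.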
